A study of Mus musculus with 28 samples.

Results

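The comparison described here sets 2 Zic2 knockout (KO) libraries against 2 wild-type (WT) libraries of mouse embryonic stem cells, all 4 taken 32 h after 2i was withdrawn. They are 4 of the 28 RNA-seq libraries of the series, and they were chosen by their genotype and time labels. The KO libraries come from the Zic2 KO lines KO.1 and KO.2. The WT libraries come from the lines named Ehmt1_WT and Zic2_WT after the KO lines they accompany. All cells are of the female line RGd2, which carries a destabilised GFP reporter with a blasticidin resistance gene at Rex1 (Zfp42), so KO and WT cells share that allele. Cells were seeded on gelatin in N2B27 medium with 2i, the Gsk3 inhibitor CHIR99021 and the Mek inhibitor PD0325901, and 2i was taken away on the following day. Each KO library is a single line at a single time, and the altered part of Zic2 is not given in the labels.

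2i holds mouse embryonic stem cells in the naive state, which corresponds to the cells of the early blastocyst. Without 2i the cells lose naive transcription factors and gain formative genes such as Fgf5, Otx2 and Dnmt3b before any lineage is chosen. Zic2 is a zinc finger transcription factor of the family related to Gli proteins. In pluripotent cells it occupies enhancers, and in mice and humans its loss is known for defects of forebrain patterning. The series title places Zic2 and Ehmt1, a histone H3 lysine 9 methyltransferase, with Zfp281 in the passage between pluripotent states, so the comparison asks which genes depend on Zic2 when naive cells leave 2i.

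These libraries were made from polyadenylated RNA, as were 12 others of the series: the same Zic2 KO and WT lines in 2i (the stage labelled ESC), and Ehmt1 KO and Ehmt1/Zic2 double KO lines at both stages. Total counts of the 4 libraries were 23086668 to 24473890, within the 19013882 to 28777604 of all 16. Levels are CPM, counts scaled to the TMM-normalised library size, given for KO.1 and KO.2 first and then for Ehmt1_WT and Zic2_WT. A gene is said to have risen or fallen where the adjusted p of edgeR's quasi-likelihood test was under 0.05, and the fit that gave it is named: the 16-library fit shares 1 estimate of the spread among 8 groups of 2, and the 4-library fit uses the 4 libraries alone. Differences are log2 fold changes, KO minus WT, ± SE, with n = 2 libraries in each group. The labels do not say whether 2 lines of a genotype were grown and harvested separately, so p-values measure only the spread between these libraries.

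At 32 h, 12 of 15667 genes passed in the 16-library fit (0.0766% of those tested), 7 higher in Zic2 KO cells (0.0447%) and 5 lower (0.0319%). In the 4-library fit 1516 of 14334 genes passed (10.6%), 670 higher (4.67%) and 846 lower (5.9%). All 12 genes were among the 1516. The median absolute difference of the 1516 was 0.57 on the log2 scale, and 339 of them differed by at least 1, of which 135 were higher and 204 lower. The 2 fits give nearly the same fold changes and differ in the spread they set them against. The biological coefficient of variation, edgeR's measure of the relative spread between replicates, was 0.0659 for the Zic2 KO pair and 0.0709 for the WT pair at 32 h, but 0.153 for the WT pair in ESC and 0.167 to 0.229 for the 4 Ehmt1 KO and double KO pairs. It was 0.15 in the 16-library fit and 0.0685 in the 4-library fit. With any 1 of the 4 libraries left out, the 16-library fit called 2 genes, and with the 8 polyA libraries at 32 h it also called 2. The 4-library fit called 731 genes without Ehmt1_WT and 983 without KO.2. Its spread is estimated from 2 residual degrees of freedom, against 8 in the 16-library fit.

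**Figure D1:**
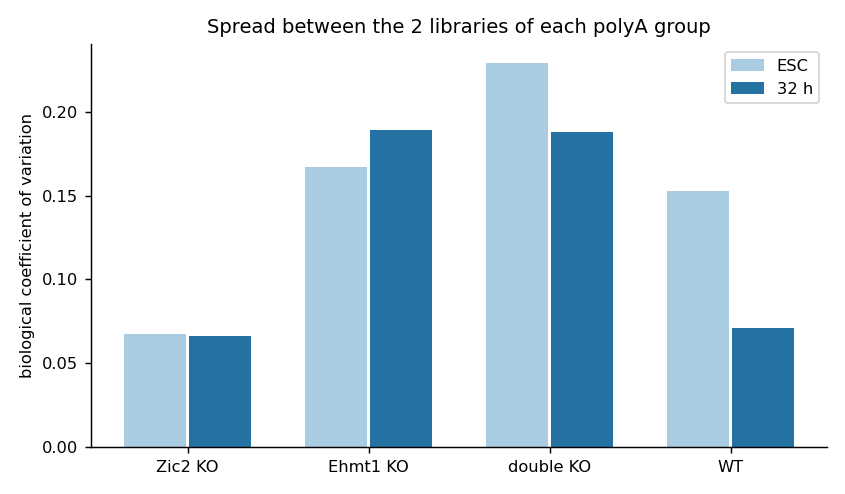
Biological coefficient of variation between the 2 libraries of each polyA group, by genotype on the x axis, in ESC (light bars) and at 32 h (dark bars). The Zic2 KO and WT pairs at 32 h stand at 0.0659 and 0.0709, below the Ehmt1 KO and double KO pairs, which stand at 0.167 to 0.229.

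The lines of a genotype were close to each other. Of 10475 genes with a mean of at least 5 CPM over the 4 libraries, 13 stood at least 2-fold apart between KO.1 and KO.2 and 28 between Ehmt1_WT and Zic2_WT, after 1 CPM was added to each value. Between a KO library and a WT library the number was 82 to 176. No 2 libraries of a group agreed within counting error (chi-square per degree of freedom of 6.39 and 7.16 at 32 h), so none was counted as a duplicate. The 4 libraries carried the markers of pluripotent cells: Pou5f1 stood at 1144 and 1193 CPM in KO libraries and at 1556 and 1465 CPM in WT libraries, and Sox2 at 127 and 159 CPM in KO libraries and 99.9 and 118 CPM in WT libraries.

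The transcript of the targeted gene was not lower. Zic2 (chr14:122475384-122480328, GRCm38.p6) had 155.7 and 228.4 CPM in KO libraries and 145.5 and 143.7 CPM in WT libraries. Both KO libraries were above both WT libraries. The KO and WT pairs do not overlap for 55.5% of all genes tested, with KO higher in 26.9% and lower in 28.5%, so this order is common. The difference of 0.41 ± 0.39 did not pass in the 16-library fit (edgeR adjusted p = 0.84) or in the 4-library fit (0.405). Without the altered part of the gene, counts over all of it do not check the label. Zic5, the family member next to Zic2 on chromosome 14 (chr14:122459160-122465658), had 39.7 and 63 CPM in KO libraries and 23.3 and 21.4 CPM in WT libraries. The groups did not overlap, and the difference of 1.20 ± 0.42 passed in neither fit (adjusted p 0.351 with 16 libraries and 0.109 with 4). For both genes KO.2 was the higher KO library, at 32 h and in ESC. Zic1 was low everywhere, at 2.44 and 2.58 CPM in KO libraries and 4.04 and 3.98 CPM in WT libraries, and passed as lower in the 4-library fit (adjusted p = 0.0475). That call was lost under DESeq2 and with each of the 4 libraries left out in turn. DESeq2 called 2 of the 4 Zic genes tested higher and 0 lower.

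Of the partners named in the title, Ehmt1 had 152 and 147 CPM in KO libraries and 149 and 154 CPM in WT libraries, with no difference beyond its error (-0.02 ± 0.16 in the 16-library fit). Zfp281 had 209 and 209 CPM in KO libraries and 254 and 248 CPM in WT libraries. It fell by 0.26 ± 0.05 in the 4-library fit (adjusted p = 0.00941) and did not pass in the 16-library fit (adjusted p = 0.585).

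Of the 7 genes that rose in the 16-library fit, Id3 encodes a protein that binds basic helix-loop-helix factors and keeps them off DNA, and it is a known target of Bmp signals. It had 16.3 and 15.6 CPM in KO libraries and 5.18 and 5.06 CPM in WT libraries. The KO libraries were about 3 times as high, a difference of 1.64 ± 0.17 (edgeR adjusted p = 0.00189). Sohlh2, a factor of early germ cells, had 74.7 and 87.4 CPM in KO libraries and 25 and 29.9 CPM in WT libraries (1.56 ± 0.20, adjusted p = 0.0123). Arntl2, a partner of the circadian factor Clock, had 4.09 and 4.67 CPM in KO libraries and 1.05 and 0.996 CPM in WT libraries (2.09 ± 0.31, adjusted p = 0.0232). In each of these 3 genes the groups lay far apart and each pair of libraries lay close together. The 12 genes were called on these same libraries, so such separation, here and below, is no further support.

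Arhgef26, a guanine nucleotide exchange factor, had the smallest p of all genes. It stood at 79.5 and 68.7 CPM in KO libraries and at 31.7 and 30.8 CPM in WT libraries (1.25 ± 0.11, adjusted p = 0.000521). It also passed with each of the 4 libraries left out in turn, as did Rab25 when a WT library was left out and Id3 when a KO library was. No other of the 12 passed with a library left out. Fbxo15, an F-box gene active in naive cells, had 196 and 178 CPM in KO libraries and 102 and 94.3 CPM in WT libraries (0.93 ± 0.13, adjusted p = 0.0198). Tmem229b, a transmembrane protein gene, had 29.2 and 34 CPM in KO libraries and 11.9 and 13.1 CPM in WT libraries (1.34 ± 0.19, adjusted p = 0.0198). Gpr157, a G protein-coupled receptor gene, had 4.55 and 4.63 CPM in KO libraries and 1.4 and 1.62 CPM in WT libraries (1.60 ± 0.24, adjusted p = 0.0232). None of these 4 genes overlapped between the groups.

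Of the 5 genes that fell, Rab25, a small GTPase of recycling endosomes in epithelia, changed most. It had 1.77 and 1.56 CPM in KO libraries and 9.47 and 10.4 CPM in WT libraries (-2.58 ± 0.27, adjusted p = 0.00189). Tmcc3, a transmembrane and coiled-coil protein gene, had 5.94 and 4.67 CPM in KO libraries and 23 and 22.1 CPM in WT libraries (-2.08 ± 0.28, adjusted p = 0.0162). Both KO libraries lay well under both WT libraries for these genes. Dysf, which encodes the membrane repair protein dysferlin, had 4.42 and 4.59 CPM in KO libraries and 12.1 and 10.6 CPM in WT libraries (-1.33 ± 0.21, adjusted p = 0.0319). Lypd6, of the Ly6 family, had 3.37 and 4.3 CPM in KO libraries and 11.7 and 10.4 CPM in WT libraries (-1.52 ± 0.24, adjusted p = 0.0367). Pramel13 had 23.7 and 23.9 CPM in KO libraries and 52.7 and 49.7 CPM in WT libraries (-1.10 ± 0.15, adjusted p = 0.0198), but it is 1 of many near-identical Prame family genes whose reads can be split in counting. No library of one group reached the other group's values in these 5 genes.

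**Figure D2:**
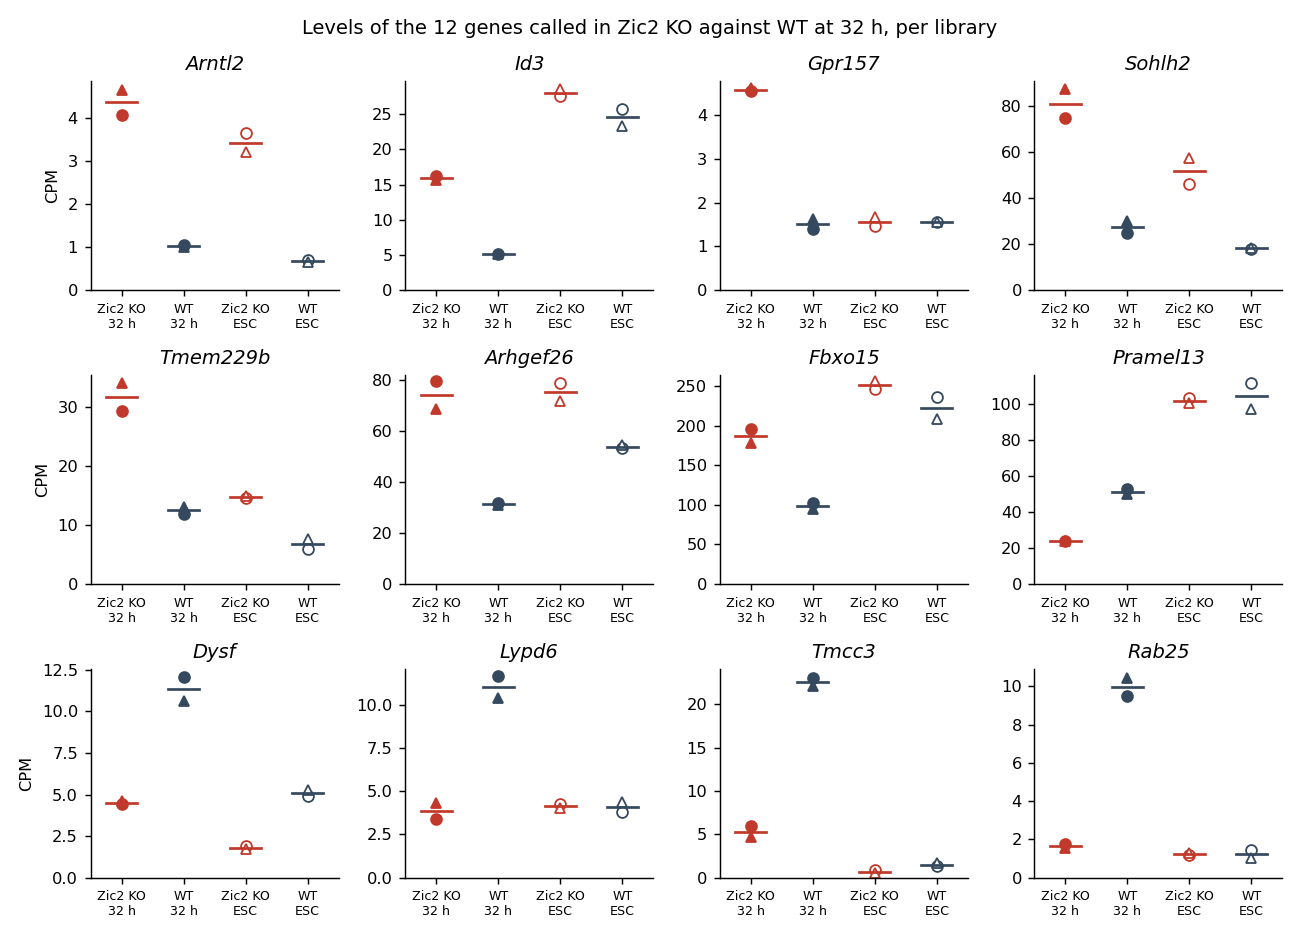
CPM of the 12 genes that passed in the 16-library fit, 1 panel each, for Zic2 KO (red) and WT (dark) libraries at 32 h (filled) and in ESC (open); circles are KO.1 or Ehmt1_WT, triangles KO.2 or Zic2_WT, and bars are means. At 32 h the KO pair and the WT pair do not overlap in any panel, and for Id3, Rab25 and Gpr157 the ESC pairs lie close together.

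Zic proteins bind a GC-rich core. The letters CCTGCTG, or CAGCAGG on the other strand, were searched on both strands in 300-base RefSeq promoters of GRCm38.p6 around annotated starts. The promoters of 3 of the 12 genes are shown because Id3 rose with the second smallest p among higher genes, Rab25 fell most, and Gpr157 is the only one with a match among the 6 higher genes whose promoter was given. Capitals mark a match.
Id3: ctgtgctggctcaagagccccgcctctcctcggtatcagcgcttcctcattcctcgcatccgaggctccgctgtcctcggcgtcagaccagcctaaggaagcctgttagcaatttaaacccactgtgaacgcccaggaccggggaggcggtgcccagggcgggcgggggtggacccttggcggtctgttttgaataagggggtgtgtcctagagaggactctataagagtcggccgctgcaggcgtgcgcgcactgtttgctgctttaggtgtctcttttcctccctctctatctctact
Rab25: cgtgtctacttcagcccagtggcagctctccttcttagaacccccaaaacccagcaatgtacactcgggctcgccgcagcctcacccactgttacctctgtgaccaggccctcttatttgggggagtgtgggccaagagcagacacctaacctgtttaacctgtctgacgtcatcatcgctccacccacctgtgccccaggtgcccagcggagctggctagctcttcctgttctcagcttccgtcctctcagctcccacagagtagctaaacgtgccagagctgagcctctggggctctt
Gpr157: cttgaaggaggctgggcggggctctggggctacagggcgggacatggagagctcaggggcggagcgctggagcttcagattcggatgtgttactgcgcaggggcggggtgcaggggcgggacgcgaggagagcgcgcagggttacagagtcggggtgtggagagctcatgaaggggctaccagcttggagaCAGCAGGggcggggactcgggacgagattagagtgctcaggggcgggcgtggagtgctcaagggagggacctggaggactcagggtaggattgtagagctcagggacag
The Gpr157 promoter (chr4:150087253-150087552, + strand) holds 1 match, at base 192, while those of Id3 (chr4:136143572-136143871, + strand) and Rab25 (chr3:88548230-88548529, - strand) hold none. Of the lower genes, Tmcc3 holds matches in 3 of its annotated promoters. Over all genes tested, 1699 of 15496 promoters (11%) hold the letters. Promoters were given for 12234 of the 15667 genes tested, under 80%, and for 653 of the 845 genes that fell in the 4-library fit. A comparison of shares between gene groups is therefore void.

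Next by p in the 16-library fit, with at least 5 CPM in the higher group, came genes that did not pass there (adjusted p 0.0558 to 0.0806 for those the naming rule takes) and passed in the 4-library fit. They are given as values. Among them Zeb1, a repressor of epithelial genes, had 30.7 and 30.1 CPM in KO libraries and 11.4 and 14.1 CPM in WT libraries (1.25 ± 0.21). Igfbp5, a secreted binder of insulin-like growth factors, had 71 and 50.4 CPM in KO libraries and 16 and 17.9 CPM in WT libraries (1.84 ± 0.33). Both genes were higher in both KO libraries, a separation that the rule requires. Kif1a, a kinesin motor, had 26.3 and 22.4 CPM in KO libraries and 96.5 and 74 CPM in WT libraries (-1.81 ± 0.31). Cldn6, a claudin of tight junctions, had 11.3 and 8.64 CPM in KO libraries and 36.3 and 30.5 CPM in WT libraries (-1.74 ± 0.31). Prom1, a membrane glycoprotein gene, had 14.8 and 11.6 CPM in KO libraries and 32 and 28 CPM in WT libraries (-1.18 ± 0.21). All 3 were lower in both KO libraries, without overlap, which the rule also requires. In ESC the differences were 0.17 for Zeb1, 1.86 for Igfbp5, -1.69 for Kif1a, -1.025 for Cldn6 and -1.07 for Prom1. None of these passed in the 16-library fit.

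Of 18 genes of the naive state, 12 were higher in both Zic2 KO libraries than in both WT libraries and 1 was lower, where 26.9% and 28.5% of all genes were. Of the 18, 1 rose in the 16-library fit (Fbxo15). In the 4-library fit 5 rose and 1 fell, where 4.67% of all genes rose and 5.9% fell. Their median difference was 0.33 at 32 h, against -0.00 over all genes tested. Zfp42 (Rex1), the gene that carries the reporter, had 112 and 105 CPM in KO libraries and 69.8 and 74.8 CPM in WT libraries, and rose by 0.59 ± 0.06 in the 4-library fit (adjusted p = 0.000582). Sox21 had 11 and 10.5 CPM in KO libraries and 1.84 and 2.78 CPM in WT libraries, and rose by 2.22 ± 0.19 in the same fit (adjusted p = 0.000256). Dppa3 and Gbx2 also rose there, by 1.58 ± 0.23 and 0.53 ± 0.11. Fgf4, the ligand whose Erk signal drives exit, went the other way, with 123.8 and 137.8 CPM in KO libraries and 245.9 and 237.9 CPM in WT libraries (-0.88 ± 0.06, adjusted p = 6.7e-05 in the 4-library fit). Not all genes of the list fall at exit. In the ribo-depleted WT libraries of the series Gbx2 rose from ESC to 32 h (1.27, edgeR adjusted p = 0.00301). Dppa3 did not pass there (0.08).

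The core naive factors did not pass. Nanog had 81.4 and 82.8 CPM in KO libraries and 67.7 and 76.8 CPM in WT libraries (0.18 ± 0.16 in the 16-library fit), and Esrrb had 45 and 56.8 CPM in KO libraries and 40.6 and 42.4 CPM in WT libraries (0.29 ± 0.13). Klf2 had 110 and 147 CPM in KO libraries and 60.9 and 86.4 CPM in WT libraries (0.81 ± 0.23). Tfcp2l1 had 28.4 and 29.5 CPM in KO libraries and 29.5 and 28.9 CPM in WT libraries. In ESC, Tfcp2l1 stood at 633 and 648 CPM in KO libraries and 479 and 573 CPM in WT libraries, and Esrrb at 760 and 753 CPM in KO libraries and 788 and 757 CPM in WT libraries. In both genotypes the 32 h values lay below every ESC value.

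Of 18 formative genes, 0 passed in the 16-library fit, where 5 had an unadjusted p under 0.05. In the 4-library fit 5 fell and 1 rose, where 5.9% of all genes fell and 4.67% rose. Their median difference was -0.12, and DESeq2 on the 4 libraries called 4 higher and 7 lower. These counts rest on single libraries: 5 fell and 5 rose without KO.1, 8 fell and 3 rose without KO.2, 3 fell and 1 rose without Ehmt1_WT, and 5 fell and 3 rose without Zic2_WT. Fgf5, the classical marker of the state that follows the naive one, had 7.58 and 5.98 CPM in KO libraries and 32.7 and 26.1 CPM in WT libraries. It fell by 2.11 ± 0.15 in the 4-library fit (adjusted p = 0.000143) and did not pass in the 16-library fit (adjusted p = 0.238). Fgf15, another secreted Fgf, had 8.18 and 13.4 CPM in KO libraries and 33.5 and 40.1 CPM in WT libraries (-1.76 ± 0.26, adjusted p = 0.0266 in the 4-library fit). Grhl2, an activator of epithelial genes, had 67.8 and 67 CPM in KO libraries and 103 and 108 CPM in WT libraries (-0.64 ± 0.06, adjusted p = 0.000284). Dnmt3b, a de novo DNA methyltransferase, had 958.6 and 933.7 CPM in KO libraries and 1213 and 1109 CPM in WT libraries (-0.29 ± 0.05, adjusted p = 0.00764). Car4 was the fifth that fell. In ESC the differences in the 16-library fit were -1.76 for Fgf5, -1.82 for Fgf15, -2.02 for Grhl2, -0.35 for Dnmt3b and -2.75 for Car4. None of these passed. Levels of Fgf15 in ESC were low, at 0.837 and 0.791 CPM in KO libraries and 2.52 and 3.26 CPM in WT libraries. Cdh2 (N-cadherin) rose in the 4-library fit, with 47.2 and 44.4 CPM in KO libraries and 27.2 and 27.1 CPM in WT libraries.

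Otx2 and Pou3f1, transcription factors of the formative state, passed in neither fit. Otx2 had 70.6 and 72.9 CPM in KO libraries and 109 and 85.8 CPM in WT libraries (-0.44 ± 0.15 in the 16-library fit), and Pou3f1 had 56.6 and 74.5 CPM in KO libraries and 86.5 and 90.1 CPM in WT libraries (-0.43 ± 0.51). Among 12 general pluripotency genes 3 fell in the 4-library fit and 0 rose, where 5.9% of all genes fell and 4.67% rose. The 3 were Pou5f1 (-0.37 ± 0.05), Lin28b (-0.49 ± 0.08) and Zfp281.

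To read the exit as a whole, genes that change between ESC and 32 h were taken from the ribo-depleted WT libraries of the series, which share no library with the Zic2 comparison. Their fit also held the ribo-depleted Zfp281 KO libraries of both stages, which shared its estimate of the spread. Of the 224 genes raised at exit (log2 change of at least 2) that the 4-library fit tested, 103 fell in Zic2 KO cells (46%, against 5.9% of all genes) and 7 rose (3.12%, against 4.67%). Over the 226 such genes in the 16-library fit the median difference was -0.57, and Rab25 and Tmcc3 passed as lower there. Summed over the class, Zic2 KO libraries had 6534 and 6666 CPM, against 9096 and 8122 CPM in WT libraries. In 162 of the 226 genes both KO libraries lay under both WT libraries, as did 28.5% of all genes, and in 25 both lay above, as did 26.9% of all genes. Genes lowered at exit went the other way: of 129 tested, 21 rose in Zic2 KO cells (16.3%) and 5 fell (3.88%), with a median of 0.18 over 161 genes.

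Of the 103 genes that fell, 2 are named here after their values were seen, for their small p in the 4-library fit. Rab15, a GTPase of the endosome, had 24.4 and 25.2 CPM in KO libraries and 57.8 and 52.4 CPM in WT libraries (-1.15 ± 0.08, adjusted p = 6.7e-05). Kif21a, a kinesin that regulates microtubule growth, had 33.4 and 35.6 CPM in KO libraries and 72.1 and 67.8 CPM in WT libraries (-1.01 ± 0.07, adjusted p = 6.71e-05). Among genes lowered at exit, Id3 and the protocadherin Pcdh19 rose. Pcdh19 had 10.4 and 10.3 CPM in KO libraries and 3.77 and 3.73 CPM in WT libraries (1.47 ± 0.14, adjusted p = 0.000399). For all 4 genes the groups did not overlap, but all 4 were picked from genes called on these libraries.

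With each of the 4 libraries left out of the 4-library fit, 81 to 98 of the raised genes fell and 10 to 24 of the lowered genes rose, the fewest in both classes without Ehmt1_WT. DESeq2 called 86 raised genes lower and 11 lowered genes higher. When the raised class was taken without the line Zfp281_WT, 134 of 463 genes fell (28.9%). With the 8 polyA libraries at 32 h sharing 1 estimate of the spread, 1 of 227 raised genes fell and 0 of 148 lowered genes rose.

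**Figure D3:**
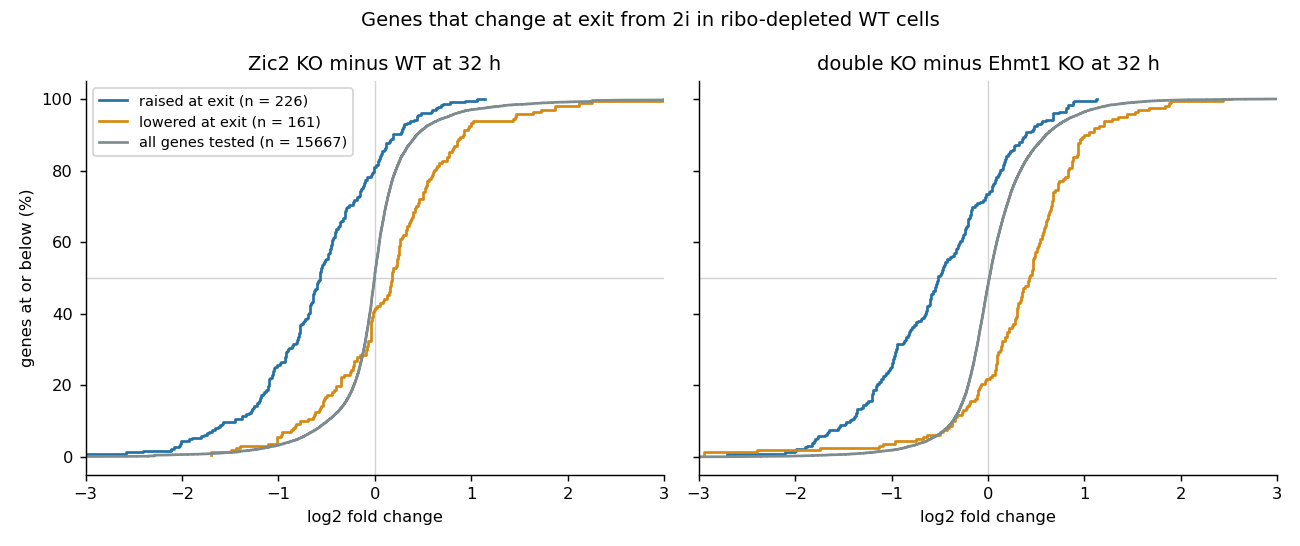
Cumulative share of genes (y axis, %) at or below each log2 fold change (x axis, drawn from -3 to 3) for genes raised at exit (blue), lowered at exit (orange) and all genes tested (grey), for Zic2 KO minus WT and for double KO minus Ehmt1 KO, both at 32 h. The raised class lies to the left of all genes, with medians of -0.57 and -0.51, and the middle of the lowered class to the right, with medians of 0.18 and 0.44.

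Of 18 genes of epithelial and mesenchymal adhesion, 7 fell and 4 rose in the 4-library fit, where 5.9% of all genes fell and 4.67% rose, and DESeq2 called 7 lower and 3 higher. In the 16-library fit 0 passed and 9 had an unadjusted p under 0.05, and their median difference was -0.27. The 7 that fell are junction proteins, a keratin and a splicing regulator of epithelia, and the 4 that rose are 2 repressors of Cdh1 and 2 other cadherins. Cdh1 (E-cadherin) had 564.1 and 573 CPM in KO libraries and 961.6 and 939.4 CPM in WT libraries, and fell by 0.74 ± 0.04 (adjusted p = 6.47e-05). Epcam, another epithelial adhesion protein, had 121 and 128 CPM in KO libraries and 187 and 189 CPM in WT libraries (-0.59 ± 0.06, adjusted p = 0.000289). The claudins Cldn6, Cldn7 and Cldn4, the keratin Krt18 and the splicing regulator Esrp1 fell as well, by 0.94 to 1.74 on the log2 scale. Zeb1 and Snai1, repressors of Cdh1, rose by 1.25 ± 0.11 and 0.93 ± 0.21, and the cadherins Cdh2 and Cdh3 rose by 0.76 ± 0.08 and 0.43 ± 0.07. In the double KO against the Ehmt1 KO at 32 h the list's median difference was 0.07. Cdh3 passed there as higher (1.13, adjusted p = 0.0189 in the 16-library fit). Cdh1 (-0.70), Epcam (-0.75), Esrp1 (-0.56), Cldn4 (-0.26) and Cldn6 (-0.25) lay below 0 and Krt18 (0.81), Snai1 (0.47), Cldn7 (0.38), Zeb1 (0.26) and Cdh2 (0.06) above 0, and none of these passed.

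Genes of the hedgehog pathway, whose Gli factors are relatives of Zic proteins, gave small differences. Of 12 tested, 4 rose and 1 fell in the 4-library fit. The effector Gli2 rose by 0.61 ± 0.13, the receptor Ptch1 by 0.28 ± 0.06, the inhibitor Sufu by 0.27 ± 0.07 and the co-receptor Gas1 by 0.78 ± 0.21, while the ligand trap Hhip fell by 0.78 ± 0.13. Without Zic2_WT the 4-library fit called 0 of these higher and 1 lower. Gli1, the usual readout of the pathway, had 20.3 and 21.9 CPM in KO libraries and 21.9 and 18.2 CPM in WT libraries, which overlapped. Of 14 Nodal and Bmp targets, 1 rose (Id3) and 3 fell (Nodal, Skil and Msx1), or 3 to 5 with 1 library left out, 5 of them without Ehmt1_WT. Nodal, the ligand, had 36.2 and 37.1 CPM in KO libraries and 51.6 and 66.1 CPM in WT libraries (-0.68 ± 0.11, adjusted p = 0.0104 in the 4-library fit). Id1 had 3.12 and 3.52 CPM in KO libraries and 1.97 and 2.32 CPM in WT libraries and did not pass, and Id2 had 10.3 and 8.44 CPM in KO libraries and 12.9 and 13 CPM in WT libraries and did not pass either. Of 13 Wnt targets 2 rose and 2 fell, but 0 rose without Ehmt1_WT, without KO.1 or under DESeq2, 1 fell without KO.2, and DESeq2 called 1 lower. By comparison 4.67% of all genes rose and 5.9% fell, and of 17 Fgf and Erk targets 1 rose (Dusp4) and 1 fell (Spry1).

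Transcripts of the 2-cell-like state, the Zscan4 cluster and its neighbours in early embryos, were low but higher in Zic2 KO cells. In the 4-library fit, where 4.67% of all genes rose and 5.9% fell, 7 of 8 rose and 0 fell, and DESeq2 called 6. In the 16-library fit 0 passed and 8 had an unadjusted p under 0.05. The list's median difference there was 1.72 at 32 h and 2.495 in ESC, so it was present before 2i was withdrawn. Zscan4d had 5.44 and 5.65 CPM in KO libraries and 1.4 and 0.871 CPM in WT libraries (2.29 ± 0.24, adjusted p = 0.000508 in the 4-library fit). Summed over the list, KO libraries had 26 and 24.4 CPM and WT libraries 7.24 and 6.93 CPM. Most of these genes have near-identical copies, so the reads assigned to each are uncertain. Of 22 germline genes 2 rose and 6 fell in the same fit; 3 fell without Ehmt1_WT, 4 without Zic2_WT, 4 without KO.2 and 4 under DESeq2. Stra8, a retinoic acid-induced gene of meiotic entry, had 45.2 and 46.9 CPM in KO libraries and 7.72 and 9.87 CPM in WT libraries (2.39 ± 0.12, adjusted p = 3.01e-05 in the 4-library fit and 0.344 in the 16-library fit). In ESC, Stra8 had 23.4 and 24.5 CPM in KO libraries and 0.618 and 1.05 CPM in WT libraries. That difference was 4.84 in the 16-library fit and did not pass.

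Markers of other cell types that a culture could hold gave mixed counts in the 4-library fit, where 4.67% of all genes rose and 5.9% fell. Of 14 primitive endoderm genes 4 rose and 1 fell, among them Sox17, at 0.716 and 0.901 CPM in KO libraries and 0.0877 and 0.083 CPM in WT libraries, and Gata6, at 2.87 and 4.18 CPM in KO libraries and 0.57 and 1.37 CPM in WT libraries. Summed over the list the KO libraries had 582.2 and 578.2 CPM, within the 562.3 and 590.4 CPM of WT libraries. Of 7 primitive streak genes 2 rose and 3 fell, of 10 trophoblast genes 1 rose and 1 fell, of 8 fibroblast genes 0 rose and 2 fell, and of 11 neural genes 1 rose (Tubb3) and 1 fell (Nes). Under DESeq2 and without Ehmt1_WT 0 streak genes and 0 trophoblast genes rose, and 1 streak gene rose with any 1 of the other 3 libraries left out. DESeq2 called 2 primitive endoderm genes higher, 2 streak genes lower and 1 fibroblast gene lower. Without KO.1, 3 primitive endoderm genes fell, and 0 neural genes rose and 2 fell. Without Zic2_WT 3 neural genes rose, and without Ehmt1_WT 1 fibroblast gene fell. Summed levels of the streak list were 17.5 and 15.6 CPM in KO libraries and 27.9 and 31.4 CPM in WT libraries, of the trophoblast list 53.4 and 45.8 CPM in KO libraries and 59.2 and 53.8 CPM in WT libraries, and of the fibroblast list 472.9 and 486.7 CPM in KO libraries and 520.6 and 543.4 CPM in WT libraries. Sox1 and Pax6, factors of the neural plate, passed in neither fit. Fewer cells of a type and less RNA per cell cannot be told apart in bulk samples, and the part of other cell types in these differences was not tested.

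In the remaining lists few genes passed in the 4-library fit. DNA methylation genes gave 2 higher and 2 lower of 11, histone H3 lysine 9 methylation genes 2 higher and 0 lower of 16, imprinted genes 0 higher and 4 lower of 31, and p53 targets 0 higher and 2 lower of 17, beside 4.67% higher and 5.9% lower of all genes. With 1 library left out the histone H3 lysine 9 calls were 0 or 1 higher and 0 to 2 lower, with 0 higher without either WT library, and DESeq2 called 0. The p53 calls were 0 without Zic2_WT and without KO.2, 1 without Ehmt1_WT and 4 without KO.1. For imprinted genes 3 were higher and 6 lower without KO.1, and 2 higher and 4 lower without KO.2. DNA methylation genes gave 1 higher and 1 lower without Ehmt1_WT. Glycolysis genes gave 3 higher and 2 lower of 18 (0 lower without Ehmt1_WT or KO.1, 1 without Zic2_WT and 5 without KO.2), led by the glucose transporter Slc2a1, with 1167 and 1204 CPM in KO libraries and 727 and 792.2 CPM in WT libraries (0.65 ± 0.05, adjusted p = 0.000179). No gene passed among 17 oxidative phosphorylation and 22 ribosomal protein genes in either edgeR fit or by DESeq2 on the 4 libraries; in the 4-library fit 1 and 3 of them had an unadjusted p under 0.05. Without KO.1, 2 oxidative phosphorylation genes and 1 ribosomal protein gene were called higher and 1 ribosomal protein gene lower.

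Of 14 RNA quality and stress genes, 11 were lower in both Zic2 KO libraries than in both WT libraries, where 28.5% of all genes were, and 1 was higher. In the 4-library fit 0 rose and 3 fell (Atf3, Atf4 and Trib3), where 4.67% of all genes rose and 5.9% fell. DESeq2 called 5 lower, and the list's median difference was -0.31. Atf4, a stress-induced transcription factor, had 343 and 352.5 CPM in KO libraries and 426 and 466.5 CPM in WT libraries (-0.36 ± 0.06, adjusted p = 0.00417 in the 4-library fit). The list had summed levels of 2088 and 2018 CPM in KO libraries and 2348 and 2321 CPM in WT libraries. The Magea genes had under 1 CPM in sum in every one of the 4 libraries, and none was tested in the 4-library fit.

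**Figure D4:**
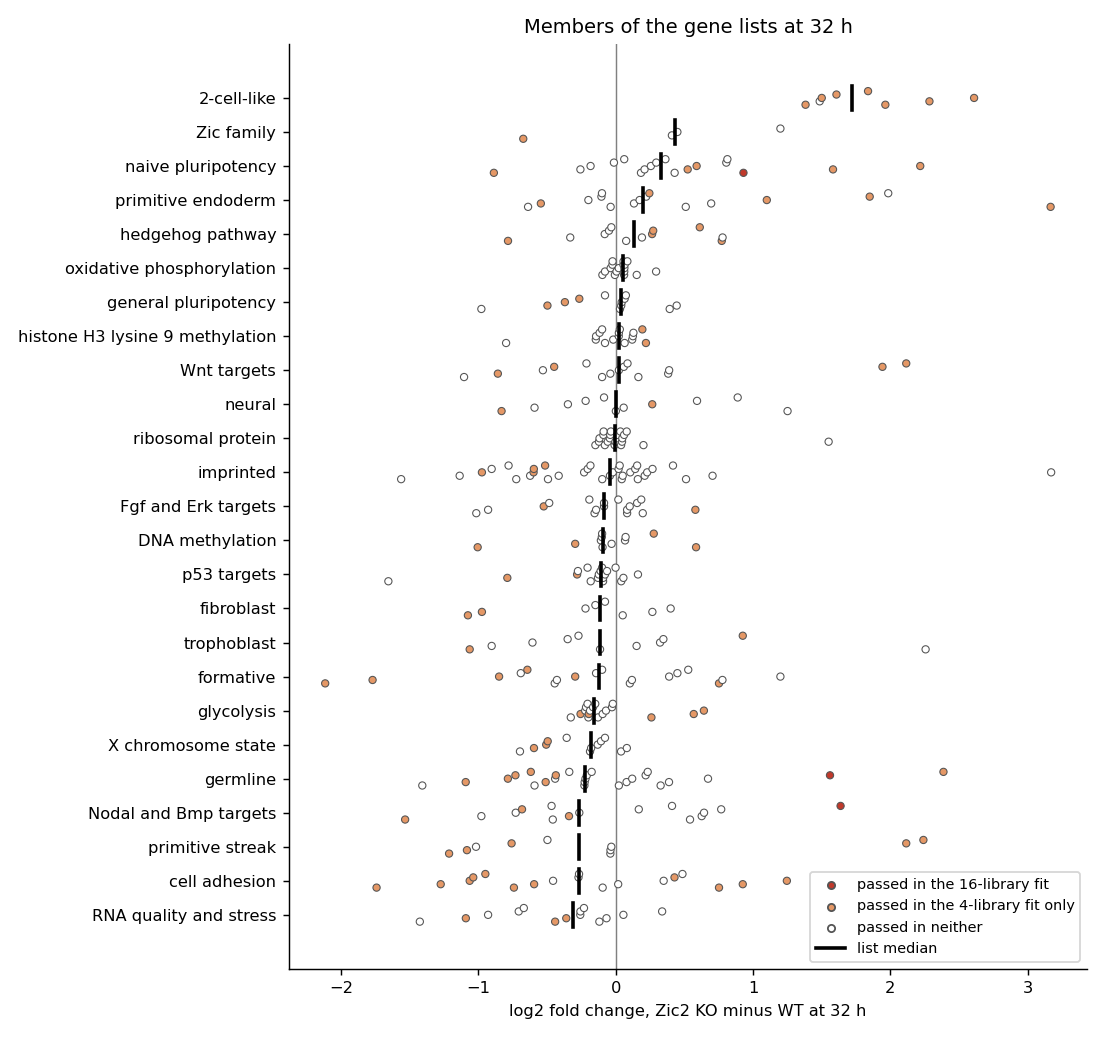
Log2 fold change of Zic2 KO minus WT at 32 h (x axis) for each tested member of the gene lists (rows), coloured by the fit in which it passed; black bars are list medians. The 2-cell-like list lies highest with a median of 1.72, naive genes at 0.33, formative genes at -0.12 and cell adhesion genes at -0.27.

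The 12 genes of the 16-library fit lie on 7 chromosomes, and none lies on X. The log2 ratio of a chromosome's share of counts, KO over WT, was between -0.08 on chromosome X and 0.03 on chromosome 9. The share of X was 3.11% and 2.99% in KO libraries and 3.34% and 3.1% in WT libraries. KO.1 lay just above Zic2_WT, so the groups overlapped, and Ehmt1_WT was the highest. The ratio of X was the lowest of all chromosomes, with chromosome 12 next at -0.04, and so was the median difference of its genes (-0.05). In the 4-library fit 15 genes of X rose and 46 fell, together 11.4% of the X genes tested, against 10.6% of all genes. Over all genes 670 rose and 846 fell, so the calls on X lay more to the lower side. Chromosome 15 had 21 higher and 50 lower, and chromosome 4 had 60 higher and 46 lower. Of 12 genes of X chromosome state, 9 were lower and 2 higher in both Zic2 KO libraries than in both WT libraries, where 28.5% and 26.9% of all genes were. In the 4-library fit 0 rose and 3 fell (Xist, Rlim and Dusp9), where 4.67% of all genes rose and 5.9% fell. Xist, the RNA that coats an inactive X, had 8.05 and 7.62 CPM in KO libraries and 11.8 and 10.3 CPM in WT libraries (-0.49 ± 0.13, adjusted p = 0.0438).

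In ESC, before 2i was withdrawn, 43 genes passed in the 16-library fit (0.274%), 25 higher and 18 lower in Zic2 KO cells. Without Zic2_WT in ESC the count was 214, and it was 0 without any 1 of the other 3 ESC libraries. Of the 12 genes called at 32 h, 4 had also passed there: Sohlh2 (1.52, adjusted p = 0.0143), Tmem229b (1.12, adjusted p = 0.0408), Arntl2 (2.32, adjusted p = 0.016) and Dysf (-1.50, adjusted p = 0.0165). Id3, by contrast, had 27.5 and 28.5 CPM in KO libraries and 25.8 and 23.3 CPM in WT libraries in ESC. Rab25 had 1.2 and 1.3 CPM in KO libraries and 1.43 and 1.05 CPM in WT libraries in ESC, which overlapped. The test of the difference between the stages called 0 genes without a block (725 had an unadjusted p under 0.05, and DESeq2 called 24). With each line as a block, since the ESC and 32 h libraries of a name are the same line, it called 50 genes, among them 6 of the 12. These were Rab25 (-2.60 ± 0.39, adjusted p = 0.0315), Id3 (1.44 ± 0.23, 0.0338), Pramel13 (-1.07 ± 0.18, 0.0338), Arhgef26 (0.76 ± 0.13, 0.0341), Fbxo15 (0.75 ± 0.14, 0.0421) and Lypd6 (-1.56 ± 0.30, 0.0489), each larger in size at 32 h than in ESC.

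The loss of Zic2 can also be read in Ehmt1 KO cells, by the double KO against the Ehmt1 KO at 32 h, which shares no library with the Zic2 KO comparison. The Zic2 transcript differed between the double KO lines, at 207.6 and 77.3 CPM, and had 128.8 and 152.6 CPM in Ehmt1 KO libraries. Here too, counts over the whole gene do not check the label. In the double KO comparison 35 genes passed in the 16-library fit (0.223%), 18 higher and 17 lower. The count was 280 without Ehmt1 KO.1, 1 without Ehmt1 KO.2, 0 without double KO.1 and 21 without double KO.2. With these 4 libraries fitted alone it was 0 (1154 had an unadjusted p under 0.05), or 37 with line number as a replicate block. The calls named below are those of the 16-library fit. Of the 12 genes, Arhgef26 and Id3 passed in both comparisons in the 16-library fit. Arhgef26 had 62.9 and 58.5 CPM in double KO libraries and 37.4 and 39.1 CPM in Ehmt1 KO libraries (0.67, adjusted p = 0.0238). Id3 had 32.4 and 25.2 CPM in double KO libraries and 13.4 and 10.2 CPM in Ehmt1 KO libraries (1.29, adjusted p = 0.0166). Both were higher in both double KO libraries. Esrrb, which did not pass in Zic2 KO cells, had 215 and 246 CPM in double KO libraries and 122 and 112 CPM in Ehmt1 KO libraries (0.98, adjusted p = 0.0166), and whether the 2 effects differ was not tested.

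Across genes, 11 of the 12 (91.7%) had the same sign in the double KO comparison and 10 (83.3%) in ESC, against 60.7% and 58.4% of all genes tested. For the 1515 genes called in the 4-library fit and tested in both fits, 1153 (76.1%) had the same sign in the double KO comparison and 1137 (75%) in ESC. Pearson's r of the log2 fold changes over these 1515 genes was 0.56 with the double KO comparison and 0.67 with ESC. Over all genes tested r was 0.25 and 0.32. Within the 670 higher genes r was 0.38 and 0.75, and within the 845 lower genes 0.26 and 0.3, in the same order. These are descriptions across genes, which are not independent replicates, and the ESC libraries come from the same lines. The median difference of genes raised at exit was -0.51 in the double KO comparison and -0.32 in ESC, and that of genes lowered at exit 0.44 and -0.04.

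**Figure D5:**
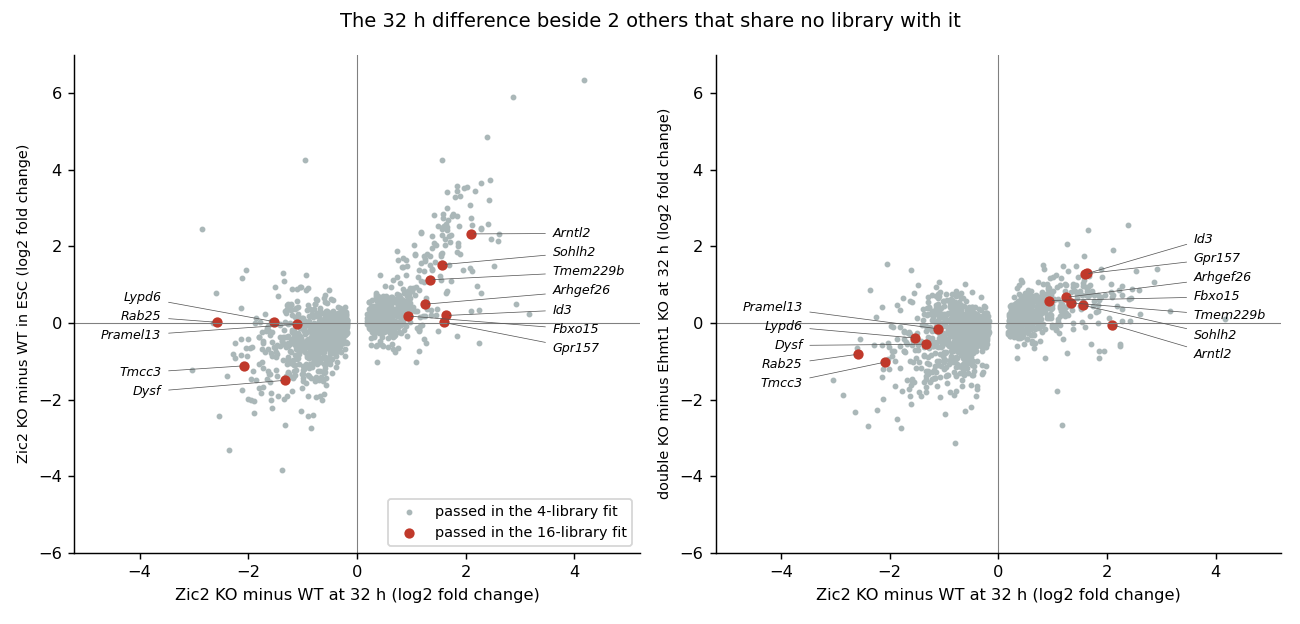
Log2 fold change of Zic2 KO minus WT at 32 h (x axis) against the same difference in ESC (left) and against double KO minus Ehmt1 KO at 32 h (right), for genes that passed in the 4-library fit (grey) and the 12 that passed in the 16-library fit (red, named). The 12 have the same sign in 10 cases in ESC and in 11 cases in the double KO comparison, where Arntl2 is the exception at -0.05.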

How the data were processed

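The authors deposited count values, whole numbers for 24116 Entrez genes, and they were used unchanged. The submitters' processing notes name GRCm38 (mm10) and edgeR. Aligner, counter, annotation and strand setting were not stated there or in the labels, so overlapping and antisense genes are uncertain. The 16 libraries fitted were TruSeq mRNA libraries, per the labels' protocols. RefSeq's GRCm38.p6 table gave symbols to 24061 genes.

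Filtering by filterByExpr (minimum count 10, minimum total 15) left 15667 genes with 16 libraries and 14334 with 4. Library sizes were scaled by TMM and tests were edgeR 4.0.16 robust quasi-likelihood (limma 3.58.1, R 4.3.3), Benjamini-Hochberg adjusted over all genes tested. Exit classes came from an edgeR fit of 8 ribo-depleted ESC and 32 h libraries (adjusted p under 0.05, absolute log2 change of at least 2). These libraries were of WT and Zfp281 KO lines, and the classes used the contrast of WT at 32 h against WT in ESC. Alternatives were DESeq2 1.42.0, its size factors, no filter, other sets of libraries and each library left out. Scripts were tested on simulated data with the spread of the 16-library fit. The 16-library fit recovered 69 of 100 genes changed by 1 on the log2 scale and 96 of 100 changed by 2, with 14 false calls. The 4-library fit recovered 65 of 100 and 93 of 98, with 24 false calls. The biological coefficient of variation of the 16-library fit, 0.15, is above the 0.0685 of the 4-library fit. These counts therefore do not give the recovery or the false calls of the 4-library fit on its own data.

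The comparison, its 26 gene lists and the naming rule were chosen with earlier results of these data known. The rule took the called genes, then those next by p to 10 a direction (mean of 5 CPM or more in the higher group, libraries not overlapping), the Zic genes and their partners, and up to 5 members per list by p, with all naive, formative, neural and hedgehog genes. Those printed were picked from these after their values were seen, and Rab15, Kif21a, Pcdh19 and some list members were added then. ESC and 32 h libraries of a name are the same line and were paired on that ground; their deviations from group means correlated at 0.34 for Zic2 KO and 0.07 for WT.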

Additional observations from a re-analysis of the deposited data

Results flagged for a closer look

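The Zic2 KO difference at 32 h differed from that in ESC, by the interaction term with each line as a replicate block, for 10 of the 48 genes followed through the alternatives. The 16-library fit without the block called none of them, and the blocked fit is used here with its result known. The term (the 32 h difference minus the ESC difference, log2) was negative for Rab25 (-2.60), Lypd6 (-1.56) and Pramel13 (-1.07), which fell at 32 h, and positive for Id3 (1.44), Zeb1 (1.07), Gnb4 (0.94), Arhgef26 (0.76) and Fbxo15 (0.75), which were higher at 32 h. It was positive for Grhl2 (1.36) and Otx2 (0.99), formative genes whose shortfall was larger in ESC. Grhl2 had 4.76 and 4.23 CPM in KO libraries and 14.7 and 21.7 CPM in WT libraries in ESC. Otx2 had 4.71 and 5.95 CPM in KO libraries and 15.9 and 12.9 CPM in WT libraries in ESC (-1.43, edgeR adjusted p = 0.0143 in the 16-library fit).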

How the results depend on the processing

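The number of genes called rests on which libraries share the estimate of the spread. At 32 h the count was 12 with 16 libraries, 1516 with the 4 alone, 2 with the 8 polyA libraries at 32 h, 175 with DESeq2, 48 with no filter, and 2 to 2 with 1 library left out. All 12 genes passed with the 4 libraries alone, with DESeq2 size factors, with DESeq2 and with no filter, and 0 changed sign under any setting; without a WT library Arhgef26 and Rab25 passed, and without a KO library Arhgef26 and Id3. In the 4-library fit the count was 963 with DESeq2 and 731 to 1782 with 1 library left out. In ESC, 43 became 207 with only the groups compared, 281 with DESeq2, 94 with no filter, and 0 to 214 with 1 library left out (214 without Zic2_WT, 0 without any 1 of the other 3). Double KO minus Ehmt1 KO, 35, became 0 with only the groups compared (1154 genes had an unadjusted p under 0.05), 259 with DESeq2, 69 with no filter, and 0 to 280 with 1 library left out: 280 without Ehmt1 KO.1, 1 without Ehmt1 KO.2, 0 without double KO.1 and 21 without double KO.2. The cause was not tested.

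The interaction, 0 genes, became 41 with only the groups compared, 24 with DESeq2, 0 to 8 with 1 library left out (8 without Zic2_WT in ESC), and 50 with the line as a replicate block. For the double KO against the Ehmt1 KO, line number as a replicate block with only the groups compared gave 37 genes, 10 higher and 27 lower, against 0 in the same 4 libraries without the block; these libraries share only a number, whose deviations correlated at 0.23. WT and Zic2 KO share no numbers.

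The median of genes raised at exit was -0.27 with a log2 change of at least 1 and -0.51 without Zfp281_WT; that of genes lowered at exit was 0.11, 0.15, and 0.12 to 0.27 with 1 library left out. Of 130 list medians under alternatives 33 moved by more than the spread between replicates. With 2 libraries a group, values under about 1 CPM rest on few counts.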
